A study of Homo sapiens with 9 samples.

Results

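The genes described here are 10 genes of the integrated stress response, a program of gene expression that is organised around the transcription factor ATF4. They are the transcription factors *ATF4*, *ATF5*, *ATF3*, *DDIT3* and *CEBPB*, and the effectors *DDIT4*, *SESN2*, *TRIB3*, *CHAC1* and *PPP1R15A*. They were chosen by name, as the rows of the count table whose NCBI gene identifier has one of these symbols in the RefSeq annotation of GRCh38.p14. All 10 were found among the 28395 genes listed, and all 10 passed the filter on low counts, which asked for 50 counts or more per library on average. RNA was sequenced from HK2, a line of proximal tubule cells labelled parental, from 786-O, a parental line of clear cell renal cell carcinoma (ccRCC), and from a metastatic derivative of the latter, whose label ends in M1A and which is called the metastatic line here. All lines were grown stably in Plasmax, a medium that follows the nutrient composition of human serum, without further treatment. There were 3 libraries of each line, 9 in all, made from replicate dishes, so that p-values measure the spread between dishes of a line. Each group is 1 cell line, and a difference between groups is one between these lines.

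In the integrated stress response, kinases that sense amino acid shortage, unfolded protein in the endoplasmic reticulum, double-stranded RNA or heme and mitochondrial defects phosphorylate the translation factor eIF2. Protein synthesis then falls in general, while the mRNAs of *ATF4*, *ATF5*, *DDIT3* and *PPP1R15A* are translated better, through short reading frames ahead of their coding sequence. ATF4 protein binds, with partners of the C/EBP and AP-1 families, to composite elements in genes of amino acid supply, redox balance and cell death. An mRNA level is therefore only a part of the output of this pathway, and protein was not analysed here.

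The composite element that ATF4 and its partners bind (the C/EBP-ATF response element, CARE) has the core TGATGNAA, and the CRE element of ATF and CREB factors has the core TGACGTCA. Both were searched on both strands in the RefSeq promoters of GRCh38.p14, from 250 bases before to 50 after the RefSeq start of a gene. All 10 genes had a promoter there, and where a gene has several the first one listed was searched. The CARE core was found in 2 of the 10 and in 3.67% of all 27305 promoters, and the CRE core in 1 of the 10 and in 1.98% of all promoters. The 3 stretches that hold a match are shown because they are the places in these promoters where the letters of the element itself can be read. They lie on the plus strand at chr1:212565206-212565233, chr15:40953252-40953279 and chr19:48872353-48872380, and the core is in capitals. That of *CHAC1* is the CARE core as read on the opposite strand.

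ATF3: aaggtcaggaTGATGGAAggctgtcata

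CHAC1: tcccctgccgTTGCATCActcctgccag

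PPP1R15A: cctctcttcgTGACGTCAgcacgccggg

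Counted from the RefSeq start, the match begins 191 bases upstream in *ATF3* (start at 212565407), 209 bases upstream in *CHAC1* (start at 40953471) and 58 bases upstream in *PPP1R15A* (start at 48872421). These starts differ from the gene boundaries given below, which are those of GENCODE and span all transcripts of a gene. In *CHAC1* and *PPP1R15A* the match lies inside the GENCODE gene, in the 5′ UTR of a transcript that begins farther upstream, and in *ATF3* it lies outside every annotated UTR. The *ATF3* gene runs from 212565334 to 212620777, and any start farther downstream in it was not searched. The other 7 promoters hold neither core in this window, which says only that these letters are not there. A match is a description of sequence, and binding was not measured in these data. The genes with a match did not share a pattern of expression, as the values given below show: *ATF3* and *PPP1R15A* had their highest level in HK2 and *CHAC1* in 786-O.

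The libraries held 30212291 to 45362428 counts. Levels are given as CPM, counts scaled to the TMM-corrected library total, and 3 counts came to between 0.0661 and 0.0993 CPM of the uncorrected totals. Across genes, each library was nearest to one from the same line. Of the markers that define proximal tubule, *LRP2*, *SLC22A6* and *SLC22A8* had 0 counts in every library, HK2 included, while *GGT1* was present in all 3 lines. The 6 markers of clear cell carcinoma summed to between 1522 and 1612 CPM in HK2, 5042 and 5141 CPM in 786-O, and 6758 and 6949 CPM in the metastatic line, most of it from *VIM*, while *CA9* had at most 3 counts in any library. The 6 epithelial markers summed to between 1507 and 1572 CPM in HK2, 454 and 492 CPM in 786-O, and 724 and 818 CPM in the metastatic line. The 6 leukocyte markers summed to at most 53.6 CPM for HK2, 27.6 CPM for 786-O and 37.4 CPM for the metastatic line, nearly all of it from *CD68*, while *PTPRC* and *CD3E* had 0 counts in every library. The 5 endothelial markers summed to at most 2.53 CPM. The 5 fibroblast markers summed to between 285 and 290 CPM in the metastatic line and to at most 29.7 CPM elsewhere. In the metastatic line almost all of this sum was from *PDGFRB*. Of the 3 fibroblast markers tested, 1 was higher and 2 were lower by at least 2-fold in the metastatic line than in HK2. The same numbers held against 786-O. Of all genes tested, 25.4% and 6.59% changed by at least 2-fold in these comparisons. The part of these marker differences in the results was not tested. As RNA came from whole dishes, fewer cells that express a gene and less RNA per cell cannot be told apart.

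The 10 genes did not move as a block between the lines. Against HK2, 9 of them differed in 786-O, 2 higher and 7 lower (edgeR's quasi-likelihood test, Benjamini-Hochberg adjusted p under 0.05). Of all 12695 genes tested, 84.2% differed in this comparison, 41.6% higher and 42.6% lower. In the metastatic line against HK2, 8 of the 10 differed, 3 higher and 5 lower, where 84.9% of all genes differed, 41.6% higher and 43.3% lower. Between the metastatic line and 786-O, 7 of the 10 differed, 5 higher and 2 lower in the metastatic line, where 56.0% of all genes differed, 27.9% higher and 28.0% lower. The shares of the 10 genes called are thus near those of all genes tested, and the members are described by the size and order of their levels.

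The median absolute log2 fold change of the 10 genes was 0.46 in 786-O against HK2 and 0.38 in the metastatic line against HK2. Between the metastatic line and 786-O it was 0.23. For all genes tested these medians were 0.47, 0.51 and 0.17, in the same order. In 786-O against HK2 2 of the 10 changed by 2-fold or more, *DDIT4* and *ATF3*, where 22.3% of all genes changed by as much. The same pair changed by at least 2-fold in the metastatic line against HK2, where 25.4% of all genes did. Both comparisons share the HK2 libraries. Between the metastatic line and 786-O 0 of the 10 changed by at least 2-fold, and 6.59% of all genes did. The 3 libraries of one line did not overlap with the 3 of the other for 9 of the 10 genes in 786-O against HK2 (85.5% of all genes), 8 in the metastatic line against HK2 (85.0%) and 8 in the metastatic line against 786-O (61.6%). The median log2 fold change of the 10 was -0.22, -0.14 and 0.11 in these comparisons, in that order, beside -0.01, -0.02 and 0.00 for all genes tested. For a single gene whose libraries do not overlap, the exact two-sided permutation test gives p = 0.1, the smallest that 3 libraries against 3 allow, and 25 of the 30 comparisons of a member reached it.

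**Figure D1:**
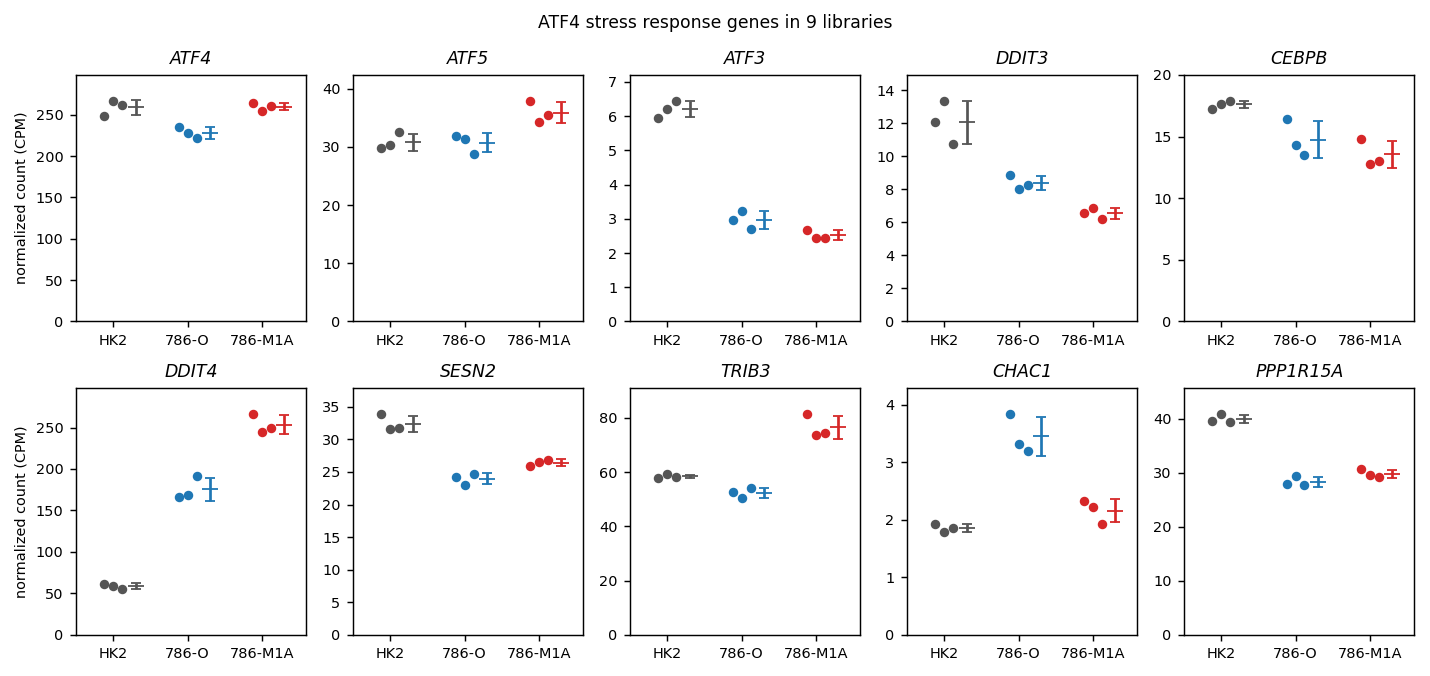
Normalized counts (CPM, each axis from 0) of the 10 genes in the 3 libraries of HK2 (grey), 786-O (blue) and the metastatic line (red, drawn under the name its labels give). Points are libraries in the order of their replicate number, and the bar beside them is the mean ± SD. *DDIT4* climbs from at most 61.6 CPM in HK2 to at least 245 CPM in the metastatic line (786-O between them), while *ATF3* and *DDIT3* are highest in HK2 and *CHAC1* in 786-O.

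*ATF4* (NCBI gene 468, chromosome 22 of GRCh38, 39519695 to 39522683, 3 exons) encodes the factor that gives the response its name. Its mRNA was at 249, 267 and 262 CPM in the HK2 libraries, at 236, 228 and 221 CPM in 786-O and at 264, 255 and 261 CPM in the metastatic line. The 786-O libraries lay below all others, while those of HK2 and the metastatic line overlapped. The log2 fold change of 786-O against HK2 was -0.18 (SE 0.04, edgeR adjusted p = 1.23e-04), and that of the metastatic line against 786-O was 0.19 (SE 0.04, adjusted p = 2.26e-04), so that the level in 786-O was lower by a fold of 1.13 and 1.14. The difference between the metastatic line and HK2 did not pass the threshold (log2 fold change 0.00, 95% interval -0.07 to 0.08, adjusted p = 0.924). Scaled by library totals alone, this last difference was -0.08 with an adjusted p of 0.0457, where the median of all genes was -0.10. The annotation lists 4 pseudogenes of *ATF4*, 0 of them in the count table, and the assignment of shared reads is not known.

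*ATF5* (NCBI gene 22809, chromosome 19, 49928702 to 49933935) encodes the factor most closely related to ATF4, known for the mitochondrial stress response. Its levels were 29.7, 30.3 and 32.5 CPM in HK2, 31.9, 31.4 and 28.8 CPM in 786-O, and 37.9, 34.3 and 35.4 CPM in the metastatic line. HK2 and 786-O overlapped, and each library of the metastatic line was above every other. Between 786-O and HK2 the log2 fold change was -0.01 (95% interval -0.12 to 0.10, adjusted p = 0.879). The level in the metastatic line was higher by 0.22 than in both HK2 (SE 0.05, adjusted p = 9.53e-04) and 786-O (SE 0.05, adjusted p = 0.00129) on the log2 scale. *ATF5* overlaps *NUP62* and *IL4I1* on the opposite strand, which are also in the count table. *NUP62* was at 117, 120 and 133 CPM in the lines in the same order, with a log2 fold change of 0.15 between the metastatic line and 786-O. How the strand was used in counting is not given in the sources used here, and the part of *NUP62* in the values of *ATF5* was not tested.

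*ATF3* (NCBI gene 467, chromosome 1, 212565334 to 212620777) encodes a stress-induced factor that is made downstream of ATF4 and of other stress pathways. Its mRNA was low, with 92 to 298 counts per library. HK2 libraries were at 5.96, 6.21 and 6.44 CPM, 786-O libraries at 2.98, 3.22 and 2.69 CPM and libraries of the metastatic line at 2.68, 2.43 and 2.43 CPM. Every HK2 library was above every library of the ccRCC lines. Set against HK2, the log2 fold change amounted to -1.07 in 786-O (SE 0.10, adjusted p = 1.06e-09) and -1.31 in the metastatic line (SE 0.10, adjusted p = 8.08e-11), a 2.11-fold and a 2.48-fold lower level. Between the metastatic line and 786-O the libraries did not overlap, but the difference of -0.23 missed the threshold (95% interval -0.47 to 0.01, adjusted p = 0.0892).

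*DDIT3* (NCBI gene 1649, chromosome 12, 57516588 to 57521737) encodes CHOP, the C/EBP factor that turns a lasting stress response towards cell death. It was at 12.1, 13.3 and 10.7 CPM in HK2, at 8.84, 7.998 and 8.25 CPM in 786-O and at 6.56, 6.88 and 6.21 CPM in the metastatic line. The 3 lines did not overlap and stood in the order HK2, 786-O, the metastatic line. Relative to HK2 the log2 fold change was -0.52 in 786-O (SE 0.08, adjusted p = 4.36e-06) and -0.88 in the metastatic line (SE 0.09, adjusted p = 3.74e-09). The metastatic line differed from 786-O by a log2 fold change of -0.35 (SE 0.09, adjusted p = 0.00197). *DDIT3* overlaps *MARS1* and *MBD6* on the opposite strand. *MARS1*, at 175, 133 and 137 CPM, was lower than in HK2 by log2 fold changes of -0.39 and -0.35, and its log2 fold change between the metastatic line and 786-O was 0.04 (adjusted p = 0.448). The part of these genes in the values of *DDIT3* was not tested.

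*CEBPB* (NCBI gene 1051, chromosome 20, 50190830 to 50192668, 1 exon) encodes a C/EBP factor that pairs with ATF4 and is itself induced in the response. HK2 libraries were at 17.3, 17.7 and 17.9 CPM, 786-O libraries at 16.4, 14.3 and 13.5 CPM and libraries of the metastatic line at 14.8, 12.8 and 13.0 CPM. HK2 lay above both ccRCC lines, which overlapped each other. Against HK2 the log2 fold change came to -0.26 in 786-O (SE 0.07, adjusted p = 0.00243) and -0.38 in the metastatic line (SE 0.07, adjusted p = 5.99e-05). From 786-O to the metastatic line it was -0.12 (95% interval -0.28 to 0.03, adjusted p = 0.162). Replicate 1 was the highest library of both ccRCC lines. Without replicate 1 of the metastatic line the difference between these lines became -0.19 and passed the threshold (adjusted p = 0.0376).

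Of the effectors, *DDIT4* (NCBI gene 54541, chromosome 10, 72273919 to 72276036) stood apart by the size of its difference. It encodes REDD1, an inhibitor of the growth kinase complex mTORC1, and is known as a target of hypoxia-inducible factors as well as of ATF4. It was at 61.6, 59.2 and 55.0 CPM in HK2, at 166, 169 and 192 CPM in 786-O and at 266, 245 and 250 CPM in the metastatic line. The lines did not overlap and rose in the order HK2, 786-O, the metastatic line. Set against HK2, the log2 fold change amounted to 1.59 in 786-O (SE 0.06, adjusted p = 1.04e-14), a 3.00-fold higher level, and 2.12 in the metastatic line (SE 0.06, adjusted p = 1.39e-16), a 4.33-fold higher level. The metastatic line differed from 786-O by a log2 fold change of 0.53 (SE 0.05, adjusted p = 1.36e-07), 1.44-fold higher. Among all genes tested, *DDIT4* ranked 1649 by the size of its log2 fold change in 786-O against HK2 and 1432 in the metastatic line against HK2.

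Genes of the hypoxia response were set beside *DDIT4* in the same comparisons. Of all genes tested, 41.6% were higher and 42.6% lower in 786-O against HK2. In the metastatic line against HK2 41.6% were higher and 43.3% lower, and against 786-O 27.9% and 28.0%. Of 9 hypoxia targets tested besides *DDIT4*, 5 were higher and 3 lower in 786-O than in HK2, 5 higher and 2 lower in the metastatic line than in HK2, and 6 higher and 0 lower in the metastatic line than in 786-O. Their median log2 fold changes were 2.06, 2.45 and 0.48. *EGLN3*, an oxygen-sensing hydroxylase, was at 1.72 ± 0.243 CPM (SD, n = 3) for HK2, 50.05 ± 5.94 CPM for 786-O and 128 ± 3.35 CPM for the metastatic line. The collagen cross-linking enzyme *LOX* went the other way against HK2, with log2 fold changes of -4.07 in 786-O and -1.68 in the metastatic line. The part of this response in the level of *DDIT4* was not tested.

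*SESN2* (NCBI gene 83667, chromosome 1, 28259518 to 28282491) encodes a leucine sensor that restrains mTORC1. HK2 libraries were at 33.9, 31.5 and 31.7 CPM, 786-O libraries at 24.2, 23.0 and 24.7 CPM and libraries of the metastatic line at 25.9, 26.6 and 26.8 CPM. HK2 was above both ccRCC lines, and the metastatic line slightly above 786-O without overlap. Against HK2 the log2 fold change came to -0.43 in 786-O (SE 0.05, adjusted p = 5.77e-08) and -0.29 in the metastatic line (SE 0.05, adjusted p = 1.49e-05). That between the metastatic line and 786-O was 0.14 (SE 0.05, adjusted p = 0.0234). This last call was lost with library totals alone as the scaling (0.09, adjusted p = 0.155). It was also lost without 786-O replicate 2 (adjusted p = 0.109), replicate 2 of the metastatic line (0.0577) or replicate 3 of the metastatic line (0.0689). Both inhibitors of mTORC1 among the 10 genes thus differed in opposite directions against HK2.

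*TRIB3* (NCBI gene 57761, chromosome 20, 362835 to 397559) encodes a pseudokinase that is induced by ATF4 and CHOP and holds ATF4 back. It was at 57.9, 59.1 and 58.1 CPM in HK2, at 52.5, 50.4 and 54.1 CPM in 786-O and at 81.3, 73.8 and 74.3 CPM in the metastatic line. The lines did not overlap, with 786-O lowest and the metastatic line highest. Set against HK2, the log2 fold change amounted to -0.16 in 786-O (SE 0.05, adjusted p = 0.00327) and 0.39 in the metastatic line (SE 0.05, adjusted p = 5.96e-08). From 786-O to the metastatic line it was 0.55 (SE 0.05, adjusted p = 1.31e-09), 1.46-fold higher. *TRIB3* was the only one of the 10 genes that was lower than HK2 in one ccRCC line and higher in the other with both differences past the threshold.

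*CHAC1* (NCBI gene 79094, chromosome 15, 40952962 to 40956512) encodes an enzyme that breaks down glutathione and is widely used as a reporter of ATF4 activity. It had the lowest counts of the 10 genes, 60 to 170 per library. The levels were 1.93, 1.79 and 1.86 CPM in HK2, 3.83, 3.32 and 3.19 CPM in 786-O and 2.32, 2.22 and 1.93 CPM in the metastatic line. The 786-O libraries lay above all others. In 786-O the log2 fold change against HK2 was 0.90 (SE 0.12, adjusted p = 7.71e-07), a 1.86-fold higher level. From 786-O to the metastatic line it was -0.68 (SE 0.12, adjusted p = 5.75e-05), a 1.60-fold lower level. Between the metastatic line and HK2 the libraries overlapped and the difference did not pass the threshold (log2 fold change 0.22, 95% interval -0.07 to 0.50, adjusted p = 0.148). Thus *CHAC1* was higher in 786-O than in HK2, while *TRIB3* and *ATF4* were lower there, and all 3 differences lay beyond the spread of the libraries.

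*PPP1R15A* (NCBI gene 23645, chromosome 19, 48872212 to 48876059) encodes GADD34, the subunit that brings a phosphatase to eIF2 and so ends the response. It was at 39.6, 40.8 and 39.4 CPM in HK2, at 27.9, 29.3 and 27.7 CPM in 786-O and at 30.7, 29.6 and 29.2 CPM in the metastatic line. HK2 was above both ccRCC lines, which overlapped. Against HK2 the log2 fold change came to -0.50 in 786-O (SE 0.05, adjusted p = 1.76e-09) and -0.42 in the metastatic line (SE 0.05, adjusted p = 2.56e-08). From 786-O to the metastatic line it was 0.08 (95% interval -0.02 to 0.17, adjusted p = 0.182). *PPP1R15B*, the constitutive counterpart of this subunit, was named after its values were seen. It was at 165 ± 2.57 CPM for HK2, 120 ± 2.89 CPM for 786-O and 106 ± 1.17 CPM for the metastatic line, and its log2 fold changes against HK2 were -0.45 and -0.63.

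**Figure D2:**
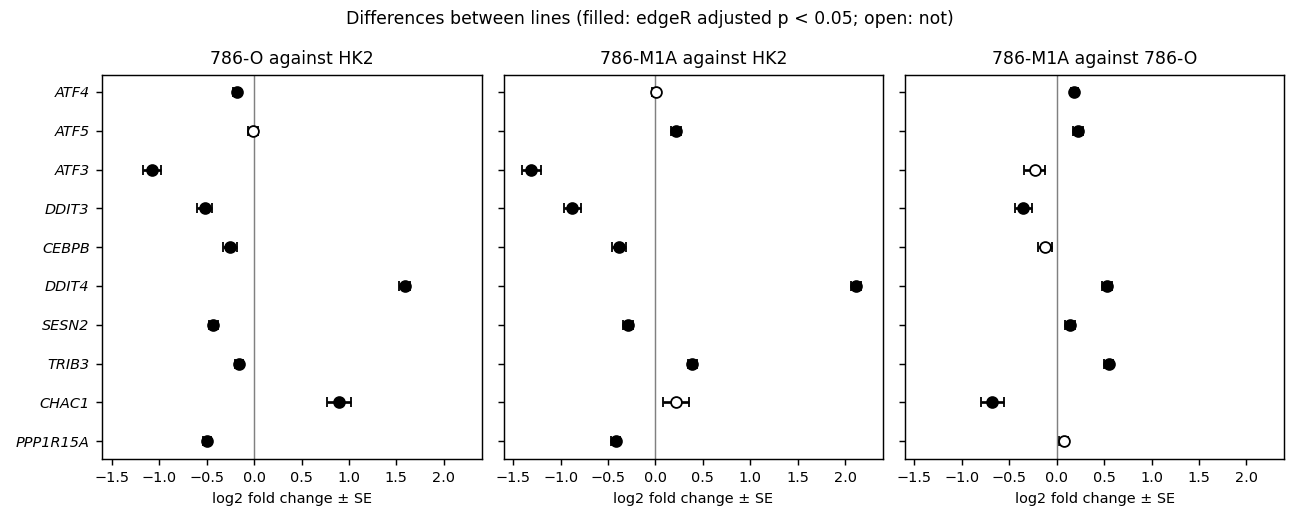
Log2 fold change (x axis) of each of the 10 genes in the 3 comparisons (a panel each), with bars of 1 standard error. Filled points passed the adjusted threshold of edgeR and open points did not. *DDIT4* lies farthest to the right in both comparisons with HK2, at 1.59 and 2.12, and *ATF3* farthest to the left, at -1.07 and -1.31.

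By the line with the highest mean, the 10 genes fell into 3 kinds. *ATF3*, *DDIT3*, *SESN2*, *CEBPB* and *PPP1R15A* were highest in HK2. *ATF4*, *ATF5*, *DDIT4* and *TRIB3* were highest in the metastatic line, although *ATF4* did not differ there from HK2 beyond its spread. *CHAC1* alone was highest in 786-O. When the 3 line means of log2 CPM were centred on each gene, *ATF5* was the member nearest to *ATF4*, at a Euclidean distance of 0.16. *SESN2* followed at 0.22, and *DDIT4* was the farthest at 1.60. Among the other genes tested, the 5 nearest to *ATF4* over the 3 lines were *PDCL*, *ZNF75D*, *WRAP53*, *SLC8B1* and *RXYLT1*, at distances of at most 0.00933. They rest on 3 points each and are a description of level only.

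Per kilobase of the MANE Select transcript, *ATF4* had the highest level of the 10 genes in every line, with 182 CPM per kb in HK2, 161 in 786-O and 183 in the metastatic line. *DDIT4* came next, at 33.6 CPM per kb in HK2, 101 in 786-O and 145 in the metastatic line, so that it came nearest to *ATF4* in the metastatic line. *TRIB3* followed in each line, at 24.8, 22.2 and 32.5 CPM per kb. At the low end were *ATF3*, at 3.20, 1.53 and 1.30 CPM per kb, and *CHAC1*, at 1.22, 2.27 and 1.42 CPM per kb. These exchanged places, *CHAC1* being the lowest in HK2 and *ATF3* the lowest in both ccRCC lines. The other 5 genes lay between 6.93 and 17.9 CPM per kb.

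**Figure D3:**
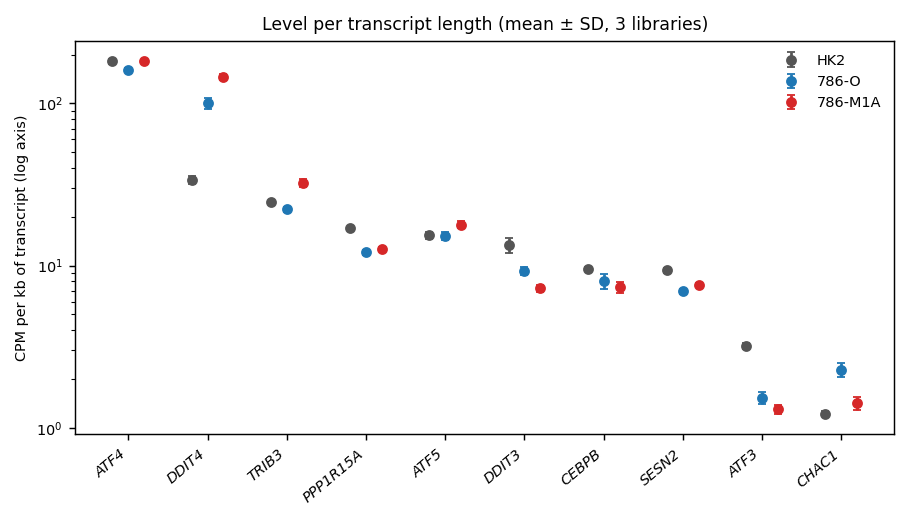
Level of the 10 genes per kilobase of transcript (CPM per kb, log axis), mean ± SD of 3 libraries, ordered by the level in HK2. *ATF4* is the highest in all 3 lines, and *DDIT4* is the gene whose lines are farthest apart, from 33.6 to 145 CPM per kb.

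Libraries of a line differed little. The SD of log2 CPM between the 3 libraries of a line was between 0.02 and 0.16 for the 10 genes, beside medians of 0.0612, 0.0550 and 0.0666 for all genes tested in HK2, 786-O and the metastatic line. *DDIT3* in HK2, with 10.7 to 13.3 CPM, had the highest of these SDs. Replicate 1 of the metastatic line was the highest library for 8 of the 10 genes, with a median deviation of 0.07 from the line's mean on the log2 scale. In HK2 no library was the highest for more than 4 of them, and in 786-O replicate 1 was the highest for 5. Apart from *CEBPB*, leaving out replicate 1 of the metastatic line changed no call of these genes.

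Upstream of the 10 genes stand the kinases of eIF2, eIF2 itself and its exchange factor eIF2B. All 18 genes of this list were tested. For this list and those that follow, the shares of all genes tested were 41.6% higher and 42.6% lower in 786-O against HK2. They were 41.6% and 43.3% in the metastatic line against HK2, and 27.9% and 28.0% in the metastatic line against 786-O. In 786-O against HK2, 8 of the 18 were higher and 9 lower, with a median log2 fold change of -0.12. In the metastatic line against HK2, 7 were higher and 8 lower (median -0.05), and in the metastatic line against 786-O 4 were higher and 5 lower (median 0.01). All 4 kinases were higher in 786-O than in HK2, where 41.6% of all genes were. *EIF2AK4*, the amino acid sensor GCN2, was at 81.9 ± 3.26 CPM for HK2, 143 ± 2.30 CPM for 786-O and 156 ± 3.79 CPM for the metastatic line. Its log2 fold change against HK2 was 0.81 (SE 0.04, adjusted p = 2.73e-14) in 786-O and 0.93 (SE 0.04, adjusted p = 1.96e-15) in the metastatic line.

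*EIF2AK3*, the endoplasmic reticulum sensor PERK, was higher than in HK2 by 0.27 on the log2 scale in both ccRCC lines. *EIF2AK1*, which responds to heme and to mitochondrial signals, was higher by 0.45 in 786-O and by 0.22 in the metastatic line. *EIF2AK2*, the sensor of double-stranded RNA PKR, was higher by 0.40 in 786-O, while in the metastatic line it was at 65.4 ± 3.65 CPM beside 69.3 ± 2.83 CPM in HK2 (adjusted p = 0.135). *EIF2S1*, the subunit of eIF2 that these kinases phosphorylate, was lower than in HK2 by log2 fold changes of -0.83 and -0.76. *OMA1*, a mitochondrial protease that starts the signal to *EIF2AK1*, was lower by -0.81 and -1.02. Phosphorylation of eIF2 was not measured in these data.

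Among the dimer partners of the bZIP factors, 14 of 15 genes were tested. Against HK2, 4 were higher and 10 lower in 786-O (median log2 fold change -0.35), and 4 higher and 8 lower in the metastatic line (median -0.19). In the metastatic line against 786-O, 7 were higher and 4 lower (median 0.12). *JDP2*, a repressor related to *ATF3*, was at 13.3 ± 0.631 CPM for HK2, 2.74 ± 0.413 CPM for 786-O and 2.11 ± 0.194 CPM for the metastatic line. *FOSL1*, an AP-1 subunit, was at 109 ± 10.6, 202 ± 0.276 and 233 ± 5.88 CPM in the lines in the same order. *CEBPA* had 305 to 397 counts per library in HK2, 30 to 45 in 786-O and 0 in every library of the metastatic line, at least 102-fold lower in the metastatic line than in HK2 on a floor of 3 counts per library.

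Among 20 ATF4 targets of amino acid supply, 10 were higher and 8 lower in 786-O than in HK2 (median 0.24), and 11 higher and 8 lower in the metastatic line than in HK2 (median 0.21). Of the same genes in the metastatic line against 786-O, 10 were higher and 5 lower (median 0.13). *SLC7A5*, the transporter of large neutral amino acids, was at 163 ± 8.18 CPM for HK2, 798 ± 37.3 CPM for 786-O and 977 ± 33.4 CPM for the metastatic line. *PHGDH*, which opens serine synthesis, had 2697 to 3749 counts per library in HK2, 0 to 1 in 786-O and 0 in the metastatic line, where it was at least 1008-fold lower than in HK2 on the same floor. *CBS*, an enzyme of cysteine synthesis, was at 21.3 ± 0.681, 5.57 ± 0.467 and 2.64 ± 0.470 CPM in the lines in the same order. The medians of both lists are the same with *CEBPA* and *PHGDH* at their bounds.

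Among 12 tRNA synthetases that ATF4 induces, 7 were higher and 3 lower in 786-O than in HK2 (median 0.16), 6 higher and 4 lower in the metastatic line than in HK2 (median 0.08), and 1 higher and 3 lower in the metastatic line than in 786-O (median -0.01). *GARS1* was higher than in HK2 by 0.88 and 0.77 on the log2 scale, and *WARS1* had log2 fold changes of -0.88 and -0.94. Of 12 other targets 9 were tested. In each ccRCC line 1 was higher and 8 were lower than in HK2, with median log2 fold changes of -0.62 in 786-O and -0.41 in the metastatic line. In the metastatic line against 786-O, 4 were higher and 3 lower (median 0.15). The gene higher in both was *VEGFA*, the growth factor of vessels and also a hypoxia target. *STC2*, a secreted glycoprotein, was at 88.7 ± 1.06 CPM for HK2, 12.5 ± 0.840 CPM for 786-O and 63.7 ± 2.79 CPM for the metastatic line. *GDF15*, a stress cytokine, was at 10.9 ± 0.332, 3.73 ± 0.485 and 2.43 ± 0.369 CPM in the lines in the same order.

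The chaperones of the endoplasmic reticulum and the genes of the other arms of the unfolded protein response were mostly higher in the ccRCC lines, and their difference from the 10 genes was not tested. Of 19 genes, 16 were higher and 3 lower in 786-O than in HK2 (median 0.24), and 13 higher and 2 lower in the metastatic line than in HK2 (median 0.34). Of all genes tested, 41.6% were higher in each of these comparisons, and the median absolute log2 fold change was 0.47 and 0.51. Of the 19 genes in the metastatic line against 786-O, 5 were higher and 7 lower (median 0.02), beside 27.9% and 28.0% of all genes. *PDIA4*, a disulfide isomerase, was at 438 ± 4.96 CPM for HK2, 721 ± 4.40 CPM for 786-O and 799 ± 16.2 CPM for the metastatic line. *HSP90B1*, an abundant chaperone, was lower than in HK2 by log2 fold changes of -0.50 and -0.58. These differences stayed under 2-fold for all 19 genes in all 3 comparisons. *DDIT3*, which PERK signalling induces beside this response, was lower than in HK2 in both ccRCC lines (-0.52 and -0.88).

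**Figure D4:**
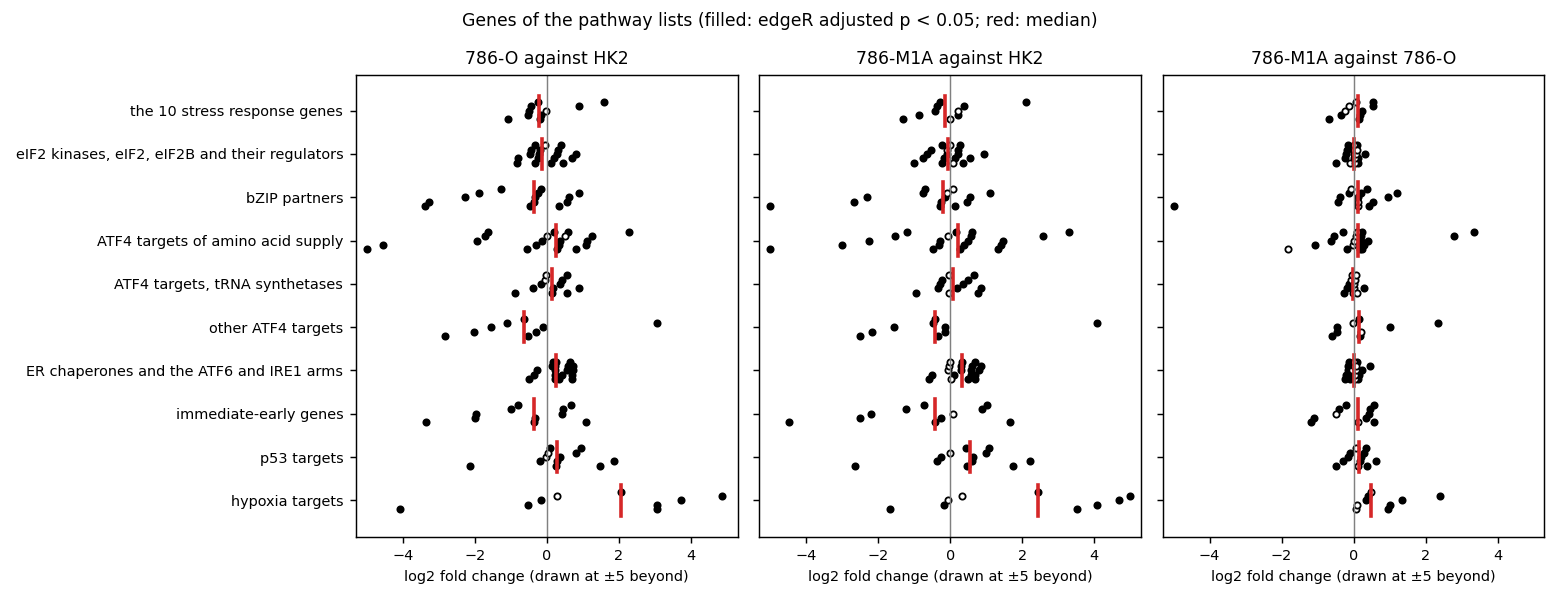
Log2 fold change (x axis, values beyond 5 in either direction drawn at 5) of the 10 genes and of the genes of 9 lists in the 3 comparisons, 1 point a gene, filled where the adjusted p of edgeR was under 0.05, with the median in red. The 10 genes lie on both sides of 0, with medians of -0.22, -0.14 and 0.11, while 16 of the 19 endoplasmic reticulum genes lie to the right in 786-O against HK2. Of all genes tested, 41.6% were called higher in that comparison.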

How the data were processed

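Libraries were TruSeq Stranded mRNA, run on a NextSeq 500. Reads per gene were counted by the authors with Rsubread on hg38. They deposited raw counts, whole numbers without normalization or filter. Annotation version and strand setting are not given in the sources used here. From these counts, the 12695 genes that averaged 50 counts or more were scaled by TMM and compared with the robust quasi-likelihood test of edgeR 4.0.16 in R 4.3.3, all 9 libraries in 1 fit with a coefficient per line. The Benjamini-Hochberg adjustment ran over all genes tested, and the threshold was 0.05. CPM are on TMM-corrected totals. SEs come from the log2 fold change and its F statistic, and 95% intervals from the SE and the degrees of freedom of the fit. Intervals and floors of 3 counts cover counting error and the spread of these dishes only. Exact tests used log2 CPM (prior count 2).

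Members and lists were chosen with earlier results of these data known. Genes named from the lists are among the 2 called genes with the largest log2 fold change in each direction per comparison. This ranking took only genes whose libraries do not overlap. The 4 kinases of eIF2 and, after its values were seen, *PPP1R15B* were added. Some genes stand in more than 1 list. Positions and transcript lengths came from GENCODE release 44 on GRCh38. The alternatives were RLE, upper-quartile and no scaling factors, other filters, DESeq2 1.42.0, limma 3.58.1, a fit of the 2 lines compared, a replicate block and leaving out each library. On simulated counts with 200 of 12695 genes changed by 2-fold or more between 786-O and HK2, edgeR called 199 of them and 11 others. The simulation gave all genes the same relative spread beyond counting error. In the data 84.2% of genes differed in this comparison, many by less, so these rates need not hold there. Protein stretches planned for the bZIP factors were not used here. The figures and summaries were made in Python 3.11.15.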

Additional observations from a re-analysis of the deposited data

Results flagged for a closer look

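*TRIB3* drew attention because its log2 fold change against HK2 had opposite signs in the 2 ccRCC lines, -0.16 in 786-O and 0.39 in the metastatic line. The difference between these effects, which is the comparison of the metastatic line with 786-O, was 0.55 (edgeR adjusted p = 1.31e-09), with every library of the metastatic line above every HK2 library and every 786-O library below. Over the alternatives it ran from 0.49 to 0.57, the effect in 786-O from -0.20 to -0.13 and that in the metastatic line from 0.30 to 0.42, and all stayed past the threshold. Both effects share the HK2 libraries. The cause was not tested.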

How the results depend on the processing

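Of the recalculated log2 fold changes of the 10 genes, 442 kept their side of the threshold and, where either value was called, their direction. Another 4 fell short of the threshold, 3 came past it and 1, past it in the recalculation, reversed. Values that changed sign without a call on either side are among the 442, such as *ATF5* in 786-O against HK2 (-0.05 to 0.03). With library totals alone as the scaling, *ATF4* in the metastatic line against HK2 turned from 0.00 to -0.082 (adjusted p = 0.0457), which is 0.02 above the median of all genes under that scaling. In the metastatic line against 786-O, the same scaling brought *ATF3* (-0.29, adjusted p = 0.0405) and *CEBPB* (-0.18, adjusted p = 0.0453) past the threshold and *SESN2* out of it. Leaving out single libraries moved *CEBPB* across it once and *SESN2* in 3 cases. The number of the 10 genes called stayed at 9 in 786-O against HK2, was 8 or 9 in the metastatic line against HK2 and between 6 and 8 in the metastatic line against 786-O. The genes called over the lists of the pathway numbered 113, 106 and 81 in these comparisons, and ran from 110 to 118, from 103 to 112 and from 71 to 86. Each gene was counted once there. These are counts without a total, so they cannot be set against the 84.2%, 84.9% and 56.0% of all genes called in the same comparisons. Of 12 p53 targets, 10 were called between the metastatic line and 786-O, and 6 without 786-O replicate 2 or without 786-O replicate 3.

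Without a filter on low counts, 13550, 13738 and 8080 genes were called in these comparisons. A replicate block in the fit gave 9, 8 and 7 of the 10 genes as called, the same numbers as without it. The correlation across genes between same-numbered libraries, as deviations from the means of their lines, ran from -0.17 to 0.04 for the metastatic line with HK2, from -0.06 to -0.03 for 786-O with HK2, and from 0.07 to 0.21 between the ccRCC lines. As not every pair was over 0.1, the numbers were not taken to pair the libraries. Between the ccRCC lines every library nevertheless correlated best with the library of its own number, which is a hint from the data and not from the design. *ATF3* and *CHAC1* rest on the fewest reads, and their standard errors were between 0.10 and 0.14 on the log2 scale, beside 0.04 for *ATF4*.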

Other observations

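2 further lists share regulators or members with the stress response. Against HK2, 41.6% of all genes tested were higher in each ccRCC line, while 42.6% were lower in 786-O and 43.3% in the metastatic line. Between the metastatic line and 786-O 27.9% were higher and 28.0% lower. Of 12 targets of p53, the tumour suppressor that also induces *SESN2*, *ATF3* and *DDIT4*, 8 were higher and 2 lower in 786-O than in HK2 (median log2 fold change 0.27), and 8 higher and 3 lower in the metastatic line than in HK2 (median 0.54). In the metastatic line against 786-O, 6 were higher and 4 lower (median 0.15). *CDKN1A*, the cell-cycle inhibitor p21, was at 32.7 ± 0.662 CPM (SD, n = 3) for HK2, 90.9 ± 4.12 CPM for 786-O and 110 ± 2.39 CPM for the metastatic line. *RRM2B*, a ribonucleotide reductase subunit, was at 24.6 ± 0.552, 89.7 ± 4.25 and 115 ± 4.17 CPM in the lines in the same order. *TP53I3*, a quinone oxidoreductase, went the other way, with 25.3 ± 1.38, 5.71 ± 0.532 and 4.09 ± 0.439 CPM. *SESN1*, the p53-responsive relative of *SESN2*, was lower than in HK2 by log2 fold changes of -0.19 and -0.36, beside -0.43 and -0.29 for *SESN2*.

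Of 13 immediate-early genes, which respond within minutes to growth factors and to handling of cells, 11 were tested. Against HK2, 4 were higher and 7 lower in 786-O (median -0.37), and 3 higher and 7 lower in the metastatic line (median -0.43). Of the same genes in the metastatic line against 786-O, 5 were higher and 4 lower (median 0.12). *FOSB* was at 5.78 ± 0.683 CPM for HK2, 0.558 ± 0.0943 CPM for 786-O and 0.257 ± 0.0488 CPM for the metastatic line, and *EGR1* at 7.95 ± 0.795, 1.97 ± 0.319 and 1.39 ± 0.609 CPM. *ATF3*, which belongs to the same kind of early gene, also had its highest level in HK2. *ZFP36*, which marks short-lived mRNAs for decay, was at 5.47 ± 0.487, 11.7 ± 0.474 and 17.3 ± 1.16 CPM. The part of these genes in the level of the stress response genes was not tested.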
